A study of Homo sapiens with 6 samples.

Results

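Expression of 10 genes at the output end of the Hippo pathway was compared between 2 laminin coatings. They were the co-activators YAP1 and WWTR1 (which encodes TAZ), the DNA-binding partners TEAD1, TEAD2 and TEAD4, the target genes CCN1 (formerly CYR61) and CCN2 (formerly CTGF), and the upstream or feedback genes AMOTL2, LATS2 and AJUBA. The genes were chosen by name, with earlier results of these data known. Each symbol matched 1 Ensembl gene ID, and all 10 of them passed the filter on low counts, out of 60499 gene IDs in the files. The cells were H1, an established human embryonic stem cell line, kept for 4 days in Nutristem medium that was renewed each day. One group of 3 wells was coated with recombinant laminin-521 alone (LN-521), and the other group of 3 wells with a blend of that laminin and laminin-221 (LN-521+LN-221). The labels name no genetic change or drug in either group, and all wells came from 1 line. P-values therefore measure the spread between wells of that line.

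Hippo signalling is a kinase relay. STK3 and STK4 activate LATS1 and LATS2, which phosphorylate YAP and TAZ and keep them out of the nucleus. When the relay is quiet, YAP and TAZ enter the nucleus, bind TEAD proteins and switch on genes such as CCN1 and CCN2. Attachment to matrix, tension in the actin skeleton and crowding of cells all feed into this relay. Much of the control lies in phosphorylation and location of the proteins, neither of which is measured by RNA. In human pluripotent cells YAP, TAZ and TEAD factors are known for their part in self-renewal and in the choice between lineages.

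Libraries held 20606494 to 26836727 estimated counts, and every one of the 10 genes had between 295 and 4739 counts in each library. LN-521 replicate 1 stood apart from the other wells of its coating on the second principal component, where it scored 31.1 against -16 and -8.44. The pluripotency markers fixed for the check of cell type, 8 genes including POU5F1, SOX2 and DNMT3B, lay between 28.9 and 872 TPM in every library. TPM, the authors' unit, is corrected for transcript length. TPM totals were shared with 7SL RNAs, which took 30.1% to 37.3% of them.

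Levels between genes are compared here in TPM. On LN-521, TEAD2 was highest at 45.5 ± 2.53 TPM (SD, n = 3) and YAP1 next at 40.1 ± 3.17 TPM (SD, n = 3), and the ranges of this pair overlapped. A step separated them from CCN2 (14.9 ± 0.90 TPM), TEAD4 (14.8 ± 0.456 TPM) and AJUBA (13.5 ± 2.35 TPM; SD, n = 3 each), whose ranges overlapped from neighbour to neighbour. TEAD1 (9.51 ± 1.23 TPM) and CCN1 (8.18 ± 0.546 TPM) overlapped each other and no further gene (SD, n = 3 each). LATS2 (5.38 ± 0.414 TPM), WWTR1 (4.68 ± 0.713 TPM) and AMOTL2 (4.26 ± 0.534 TPM) were lowest and overlapped in turn (SD, n = 3 each). On LN-521+LN-221 the order was the same except that AJUBA, at 15.9 ± 0.334 TPM (SD, n = 3), ranked next after YAP1. CCN2, at 10.6 ± 0.997 TPM (SD, n = 3), ranked after TEAD4. There WWTR1 and AMOTL2 were the only neighbours whose ranges overlapped. YAP1 exceeded WWTR1 in TPM by 8.66 ± 0.967 times in LN-521 wells against 9.27 ± 1.74 times in LN-521+LN-221 wells (SD, n = 3 each), and these ratios overlapped between the coatings.

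**Figure D1:**
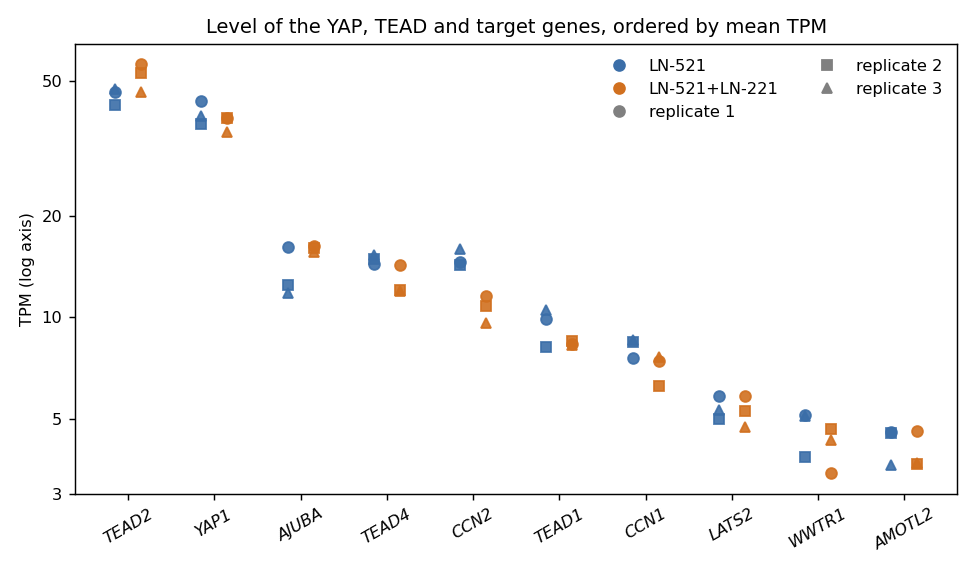
TPM of each gene (log axis) in the 6 libraries, ordered by mean TPM, with LN-521 in blue, LN-521+LN-221 in orange and a symbol for each replicate. TEAD2 and YAP1 lie above 35 TPM in every library, while LATS2, WWTR1 and AMOTL2 lie below 6 TPM.

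Changes between the coatings are given as log2 fold changes, positive where LN-521+LN-221 was higher, from edgeR's quasi-likelihood test, with p-values adjusted over all 17608 genes tested and a threshold of 0.05. Expression per library is given as CPM, a count scaled to library size with TMM factors and not corrected for gene length. CCN2 fell on LN-521+LN-221 and was the 1 gene of the 10 that passed the threshold. Over all genes tested, 446 passed, or 2.53%, with 1.14% lower and 1.4% higher. That background count was 1179 without LN-521 replicate 1 and 201 without LN-521 replicate 3. It was 290, 198 and 194 without replicates 1, 2 and 3 of LN-521+LN-221, respectively.

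CCN2 (ENSG00000118523; GRCh38 chr6:131948176-131951373, minus strand, GENCODE 29) encodes a secreted matricellular protein and is the target most often used to read YAP activity. Its CPM was 36.2, 42.1 and 44.7 in the LN-521 wells and 29.5, 28.8 and 26.6 in the LN-521+LN-221 wells. All 3 wells with laminin-221 were below all 3 wells without it. The log2 fold change was -0.54 ± 0.08 (SE; 95% interval -0.71 to -0.36; edgeR adjusted p = 0.00117), or 0.690 of the LN-521 level. In TPM, the 3 values on LN-521 were 14.5, 14.2 and 15.9 and those on LN-521+LN-221 were 11.6, 10.8 and 9.58, again without overlap. CCN2 passed in each of the 6 fits that left out a library, with a log2 fold change from -0.62 to -0.47. It did not pass when limma was run on TPM, at -0.45 with log2(TPM + 1) (limma adjusted p = 0.15; 3.33e-09 to 0.155 over the settings with all libraries). In bulk RNA, fewer cells that express a gene and less RNA per cell cannot be told apart, here and in every comparison that follows. An antisense gene, ENSG00000227220, overlaps a CCN2 exon, but it had only 1 to 5 counts per library.

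The CCN2 promoter is shown because this gene carried the change that passed. The sequence is the RefSeq window of 250 bases before the transcription start, GRCh38.p14 chr6:131951373-131951622 on the minus strand, written 5′ to 3′. Capitals mark matches to GGAATG, the core of the element that TEAD proteins bind, which was searched on both strands (its reverse complement is CATTCC).

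CCN2 promoter: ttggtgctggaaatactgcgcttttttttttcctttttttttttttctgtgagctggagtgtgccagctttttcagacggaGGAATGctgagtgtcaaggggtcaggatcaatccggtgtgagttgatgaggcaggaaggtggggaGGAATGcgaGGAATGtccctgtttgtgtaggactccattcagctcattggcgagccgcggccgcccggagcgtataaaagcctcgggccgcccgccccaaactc

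The window held 3 matches, all in the forward direction, starting 169, 104 and 95 bases before the start site and not overlapping one another. Of 35116 RefSeq windows of the same length, 11.9% held at least 1 match on either strand and 29 windows (0.0826%) held at least 3. RefSeq windows were matched for 7 of the 10 genes. For CCN1, TEAD1 and TEAD4 no window was used. Of those 7 genes, 4 had a match in at least 1 window, against 14.3% of all 27305 genes with a window. The other three each had a single match, printed in a stretch of 40 bases so that their matches can be set beside those of CCN2. AMOTL2 and AJUBA each had 2 annotated starts, and the match lay before only 1 of them.

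AMOTL2, chr3:134374494-134374533, minus strand, match 69 bases before the start: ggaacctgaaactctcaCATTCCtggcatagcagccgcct
AJUBA, chr14:22976879-22976918, minus strand, match 59 bases before the start: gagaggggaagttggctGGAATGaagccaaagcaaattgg
YAP1, chr11:102110268-102110307, plus strand, match 162 bases before the start: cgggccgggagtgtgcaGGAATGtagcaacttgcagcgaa

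A match is a description of letters and not a measured binding site. Neither LATS2, WWTR1 nor TEAD2 had a match in these windows.

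**Figure D2:**
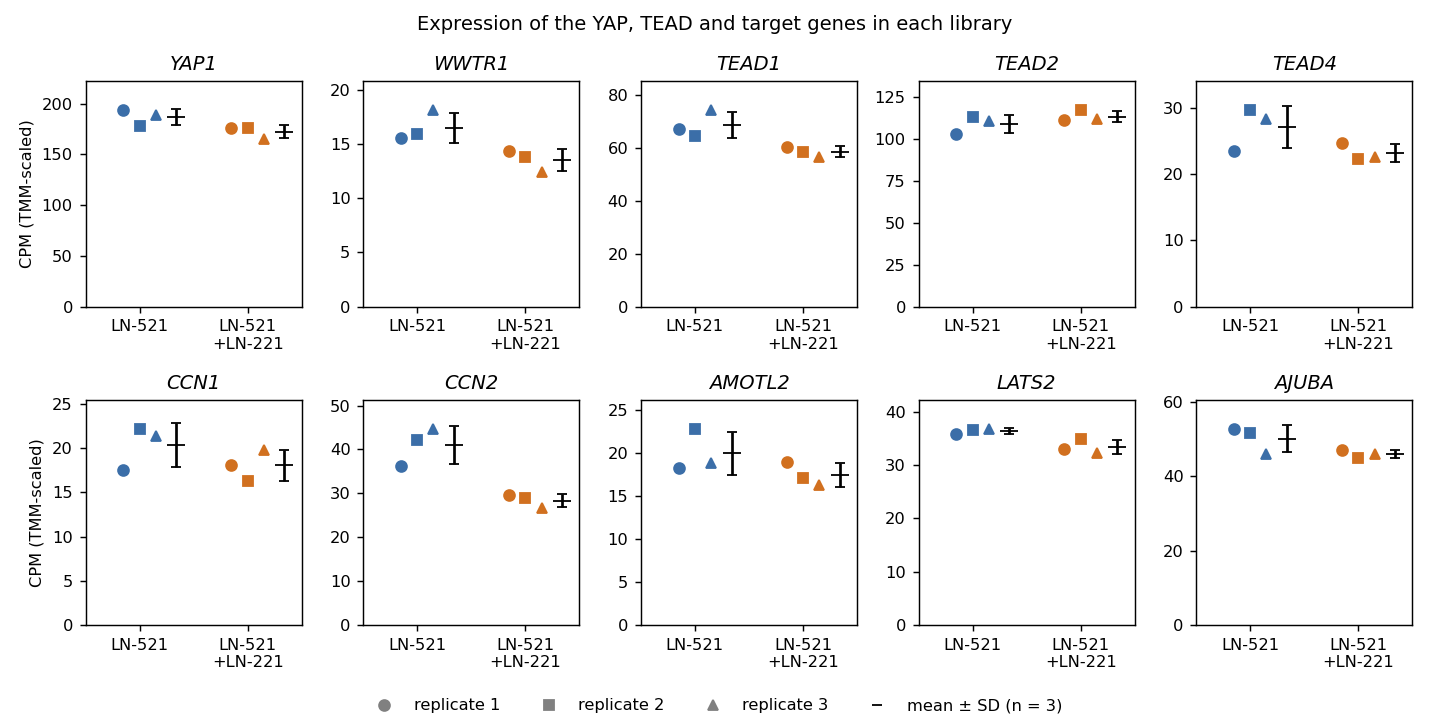
CPM of each gene in the 6 libraries, one panel per gene with its own axis from 0. Points are wells, with a symbol per replicate, and black bars give the mean ± SD of 3 wells. CCN2, YAP1, WWTR1, TEAD1 and LATS2 show no overlap between the coatings, and CCN2 falls from 41.0 to 28.3 CPM on average.

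In CPM the co-activators were lower in every LN-521+LN-221 well without passing the threshold. YAP1 (ENSG00000137693; chr11:102110461-102233423, plus strand) had 193.4, 178.2 and 188.8 CPM in LN-521 wells against 176.0, 175.9 and 165.2 CPM in LN-521+LN-221 wells. The lowest LN-521 well and the highest LN-521+LN-221 well differed by little, so the groups were separate by a narrow margin. Its log2 fold change was -0.12 ± 0.05 (SE; edgeR adjusted p = 0.342). WWTR1 (ENSG00000018408; chr3:149517235-149736714, minus strand), the gene of TAZ, had 15.6, 16.0 and 18.1 CPM in LN-521 wells against 14.3, 13.9 and 12.5 CPM in LN-521+LN-221 wells. All LN-521+LN-221 wells were below all LN-521 wells, and the log2 fold change was -0.29 ± 0.10 (SE; edgeR adjusted p = 0.154). This value passed when LN-521 replicate 1 was left out, at -0.33 (edgeR adjusted p = 0.0474; 0.0474 to 0.492 across the 6 leave-one-out fits). In TPM both co-activators overlapped between the coatings, and limma on log2(TPM + 1) gave -0.14 for WWTR1 (limma adjusted p = 0.881). Summed YAP1 and WWTR1 TPM was 44.8 ± 3.74 in LN-521 wells against 41.9 ± 2.00 in LN-521+LN-221 wells (SD, n = 3 each), with overlap.

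TEAD proteins bring YAP and TAZ to DNA, and none of the 3 genes of the set passed the threshold in the reported fit. Of the 11 other settings with all libraries, TEAD1 passed in 2. These were the fit without the filter on low counts (-0.24, edgeR adjusted p = 0.0344) and the GC correction (-0.26, edgeR adjusted p = 0.00455). With limma on log2(TPM + 1) TEAD1 was at -0.16 (limma adjusted p = 0.824), and its TPM overlapped between the coatings. TEAD1 (ENSG00000187079; chr11:12674591-12944483, plus strand) had 67.3, 64.6 and 74.2 CPM in LN-521 wells against 60.5, 58.6 and 56.6 CPM in LN-521+LN-221 wells. Its wells did not overlap, being lower on LN-521+LN-221, and the log2 fold change, -0.23 ± 0.07 (SE; edgeR adjusted p = 0.0843), was short of the threshold. Without LN-521 replicate 1 it passed at -0.24 (edgeR adjusted p = 0.0271), and without LN-521 replicate 2 at -0.27 (edgeR adjusted p = 0.017; 0.017 to 0.397 over the 6 such fits). TEAD4 (ENSG00000197905; chr12:2959330-3040673, plus strand) had 23.6, 29.7 and 28.4 CPM in LN-521 wells against 24.7, 22.3 and 22.6 CPM in LN-521+LN-221 wells. Here LN-521 replicate 1 lay among the LN-521+LN-221 wells, and the other LN-521 wells lay above them. The log2 fold change was -0.23 ± 0.09 (SE; edgeR adjusted p = 0.238), and without LN-521 replicate 1 it was -0.32 (edgeR adjusted p = 0.0162; 0.0162 to 0.594 over the 6 such fits). TEAD2 (ENSG00000074219; chr19:49340595-49362457, minus strand), the most abundant TEAD here, had 103.4, 113.5 and 111.1 CPM in LN-521 wells against 111.2, 117.2 and 111.8 CPM in LN-521+LN-221 wells. The wells overlapped, and the log2 fold change was 0.05 ± 0.06 (SE; 95% interval -0.07 to 0.17; edgeR adjusted p = 0.742). It was 0.01, 0.08 and 0.03 without LN-521 replicate 1, LN-521 replicate 2 and LN-521+LN-221 replicate 2, and 0.18 with limma on log2(TPM + 1) (limma adjusted p = 0.735).

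Within the TEAD family, the shares of summed TPM held by TEAD2 and TEAD4 did not overlap between the coatings. TEAD2 held 57.3%, 54.4% and 57.1% of the summed TPM of TEAD1 to TEAD4 in LN-521 wells against 62.3%, 63.4% and 59.4% in LN-521+LN-221 wells, where every well was higher. For TEAD4 the shares were 17.8%, 19.0% and 18.4% in LN-521 wells against 15.8%, 14.4% and 15.3% in LN-521+LN-221 wells, where every well was lower. The shares of TEAD1 and TEAD3 overlapped between the coatings. Summed TEAD TPM also overlapped, at 80.8 ± 2.39 in LN-521 wells against 83.8 ± 6.03 in LN-521+LN-221 wells (SD, n = 3 each). These shares rest on TPM and were not tested. In CPM, neither TEAD2 nor TEAD4 itself was separate between the coatings.

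CCN1 (ENSG00000142871; chr1:85580761-85583962, plus strand) encodes the close relative of CCN2 and is another standard YAP target. It had 17.5, 22.2 and 21.4 CPM in LN-521 wells against 18.1, 16.3 and 19.8 CPM in LN-521+LN-221 wells. The lowest LN-521 well, replicate 1, lay within the LN-521+LN-221 range. Its log2 fold change was -0.18 ± 0.10 (SE; 95% interval -0.39 to 0.04; edgeR adjusted p = 0.478). It was -0.27 without LN-521 replicate 1 (edgeR adjusted p = 0.0815), -0.11 without LN-521 replicate 2 and -0.10 without LN-521+LN-221 replicate 2. The interval of CCN1 and that of CCN2 (-0.71 to -0.36) overlap, and the difference between the 2 genes was not tested.

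AMOTL2, LATS2 and AJUBA act on YAP within the relay, and AMOTL2 and LATS2 are also feedback targets. AMOTL2 (ENSG00000114019; chr3:134355874-134375479, minus strand), an angiomotin that holds YAP at cell junctions, had 18.2, 22.8 and 18.8 CPM in LN-521 wells against 19.0, 17.1 and 16.3 CPM in LN-521+LN-221 wells. LN-521 replicate 2 was high and the other wells overlapped, and the log2 fold change was -0.20 ± 0.10 (SE; edgeR adjusted p = 0.395). Without LN-521 replicate 2 it was -0.085, and limma on log2(TPM + 1) gave -0.076 (limma adjusted p = 0.937). LATS2 (ENSG00000150457; chr13:20973032-21061547, minus strand), one of the kinases that phosphorylate YAP, had 35.7, 36.5 and 36.8 CPM in LN-521 wells against 33.0, 34.8 and 32.3 CPM in LN-521+LN-221 wells. Its wells did not overlap but the gap was small, and the log2 fold change was -0.12 ± 0.07 (SE; edgeR adjusted p = 0.449), against -0.025 with limma on log2(TPM + 1) (limma adjusted p = 0.974). AJUBA (ENSG00000129474; chr14:22971174-22982642, minus strand) encodes a LIM-domain protein that binds LATS kinases and restrains them. It had 52.7, 51.5 and 46.0 CPM in LN-521 wells against 47.1, 44.8 and 46.0 CPM in LN-521+LN-221 wells. The groups overlapped, and the log2 fold change was -0.12 ± 0.07 (SE; edgeR adjusted p = 0.444).

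The direction of AJUBA depended on the unit. In TPM it was 16.1, 12.4 and 11.8 in LN-521 wells against 16.2, 16.0 and 15.6 in LN-521+LN-221 wells, and limma on log2(TPM + 1) gave 0.24 (limma adjusted p = 0.698; 0.406 to 0.702 over the settings with all libraries). LN-521 replicate 1 lay among the LN-521+LN-221 wells on this scale. Counts divided by TPM give the transcript length on which the TPM of a gene rests, expressed here relative to the LN-521 mean after scaling each library to its median gene. For AJUBA this ratio was 0.951, 1.02 and 1.02 in LN-521 wells against 0.829, 0.765 and 0.776 in LN-521+LN-221 wells, with no overlap. The change between the coatings, to 0.793 of the LN-521 value, was exceeded in this direction by 0.599% of the 13178 genes with at least 50 counts in every library, where the middle 90% of genes lay between 0.903 and 1.11. CCN2 was at 1.00 by the same measure of coating means, and the other genes of the 10 were between 0.941 and 1.06. CCN1 (1.06) and TEAD4 (1.03) were higher in every LN-521+LN-221 well. The WWTR1 mean of 0.969 hid a wide spread, with 1.24, 0.849 and 0.793 in LN-521+LN-221 wells, which overlapped the LN-521 wells. The TPM values of WWTR1, and their overlap between the coatings, are therefore uncertain as well, and the cause of this spread was not tested. A second gene, ENSG00000259132, shares AJUBA exons on the same strand. It had 59 to 166 counts per library, where AJUBA had 978 to 1370, and a log2 fold change of 0.29 (edgeR adjusted p = 0.842). The AJUBA values are uncertain here, since the part of the estimated isoform mix, and of reads divided between the 2 genes, was not tested.

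**Figure D3:**
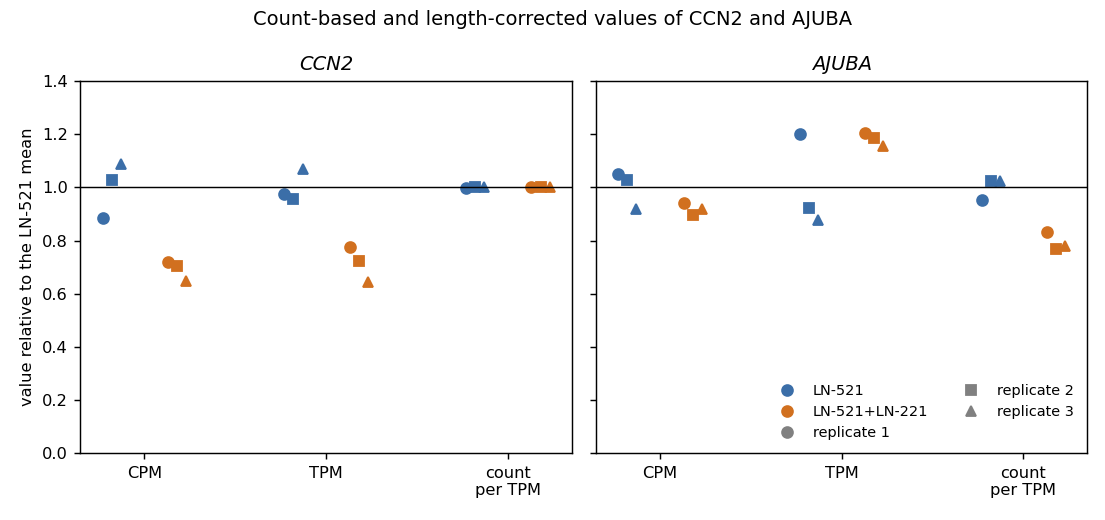
CPM, TPM and count per TPM of CCN2 and AJUBA in the 6 libraries, each relative to its LN-521 mean (line at 1). For CCN2 the count-based and the length-corrected values are both lower on LN-521+LN-221, while for AJUBA the count per TPM is at 0.793 and TPM exceeds that of LN-521 replicates 2 and 3.

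As the 10 genes were chosen with earlier results of these data known, setting them beside all genes is descriptive. Side by side, 9 of the 10 log2 fold changes were below 0, and TEAD2 was the exception. Their median was -0.19, against 0.00 over all genes tested, of which 50.3% were below 0. In CPM, 5 of the 10 genes did not overlap between the coatings, all 5 of them lower on LN-521+LN-221. Among all genes tested, 19.9% did not overlap, with 9.68% lower and 10.2% higher. In TPM 2 of the 10 did not overlap, CCN2 and TEAD4, both lower, where 12.8% of all genes tested did not overlap and 4.94% were separate and lower. The 9 genes that did not pass lay between -0.29 and 0.05. The median absolute log2 fold change was 0.19 over the 10 genes and 0.11 over all genes tested. In LN-521 replicate 1, 2 of the 10 genes were above the mean of its coating, against 7 and 8 in the other LN-521 wells. Without that well, 4 of the 10 genes passed (CCN2, WWTR1, TEAD1 and TEAD4), all lower, and over all genes 1179 of 18026 passed. Without LN-521 replicate 2, 2 of the 10 passed (CCN2 and TEAD1), and over all genes 635 of 17833.

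**Figure D4:**
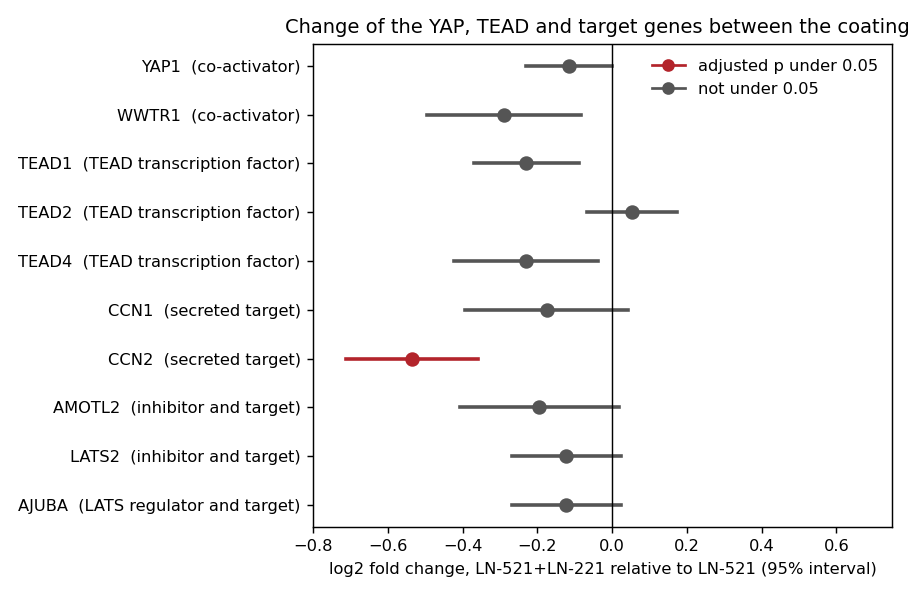
Log2 fold change of each gene with its 95% interval (not adjusted for multiple tests), ordered by role. CCN2, in red, is the gene with an adjusted p-value under 0.05, and TEAD2 is the gene to the right of 0.

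The rest of the pathway was read from 2 lists that share no gene with the 10. The first held 27 regulators, and all 27 were tested. FAT1 rose and FAT4 fell. Both encode giant cadherins related to Drosophila Fat, which feeds into Hippo signalling. FAT1 went from 767 ± 49.8 to 1064 ± 37.3 CPM (SD, n = 3 each), or 0.47 ± 0.05 in log2 units (SE, edgeR adjusted p = 6.28e-05), and FAT4 from 19.1 ± 0.983 to 13.2 ± 0.421 CPM (SD, n = 3 each). In log2 units FAT4 changed by -0.53 ± 0.09 (SE; edgeR adjusted p = 0.0022). FAT1 TPM was 74.6 ± 8.02 times FAT4 TPM in LN-521 wells against 161 ± 5.51 times in LN-521+LN-221 wells (SD, n = 3 each), with no overlap. The median of the 27 was 0.02, with 13 below 0, and 2 of 27 passed, against 2.53% of all genes.

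In the core kinase cassette of STK3, STK4, SAV1, LATS1, MOB1A and MOB1B, log2 fold changes ran from -0.04 for SAV1 to 0.14 for STK4, and none of the 6 passed (edgeR and DESeq2; 1 at an unadjusted p under 0.05 with edgeR, where 14.5% of all genes were). By mean TPM over all 6 libraries, the most abundant regulators after FAT1 were MAP4K4, a kinase that acts beside STK3 and STK4 on LATS, and WWC2, a relative of the LATS activator KIBRA. MAP4K4 was 279 ± 21.4 CPM in LN-521 wells against 303 ± 11.6 CPM in LN-521+LN-221 wells (SD, n = 3 each; edgeR adjusted p = 0.392), and passed without LN-521 replicate 1 (edgeR adjusted p = 0.0336; 0.0336 to 0.777 over the 6 such fits). WWC2 was 227 ± 8.60 and 209 ± 4.70 CPM (SD, n = 3 each; edgeR adjusted p = 0.293), without overlap, and passed with the GC correction (-0.14, edgeR adjusted p = 0.0274). WWC1, the gene of KIBRA, was named after its values were seen. It was higher in every LN-521+LN-221 well, at 39.6 ± 2.12 and 47.5 ± 2.81 CPM (SD, n = 3 each). It did not pass (edgeR adjusted p = 0.0622, DESeq2 adjusted p = 0.0526).

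The second list held 18 genes: the 22-gene YAP and TAZ target signature derived from tumours, without CCN1, CCN2, AMOTL2 and LATS2. Of these 18, 16 were tested, 3 rose and 1 fell, where 1.4% of all genes tested rose and 1.14% fell. ANKRD1 and FOXF2 were not tested, as they had 0 to 1 and 0 to 3 counts per library. TGFB2, a TGF-beta ligand, had the largest change of the list, from 5.51 ± 0.915 to 15.9 ± 2.43 CPM (SD, n = 3 each), or 1.53 ± 0.14 in log2 units (SE, edgeR adjusted p = 4.38e-06). GADD45A, a stress and DNA-damage response gene, rose by 0.82 ± 0.15 (SE; edgeR adjusted p = 0.00487), and MYOF, a membrane-repair protein of the ferlin family, by 0.62 ± 0.11 (SE; edgeR adjusted p = 0.00293). CCDC80, a secreted matrix protein, changed by -0.62 ± 0.11 in log2 units (SE; edgeR adjusted p = 0.00366). The call of GADD45A was lost once LN-521+LN-221 replicate 2 was left out (0.76, edgeR adjusted p = 0.0504; 0.00584 to 0.0504 over the 6 such fits).

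Genes of the same target signature went in opposite directions, as CCN2 and CCDC80 fell while TGFB2, GADD45A and MYOF rose. Over the 16 tested genes of the second list the median was 0.04, and 7 of 16 were below 0. The 3 most abundant of them by mean TPM over all 6 libraries did not pass. AXL, a receptor tyrosine kinase, was 70.2 ± 7.43 CPM in LN-521 wells against 77.2 ± 1.60 CPM in LN-521+LN-221 wells (SD, n = 3 each; edgeR adjusted p = 0.414). PTPN14, a phosphatase that restrains YAP, was 129.6 ± 6.08 and 137.7 ± 2.39 CPM (SD, n = 3 each; edgeR adjusted p = 0.514). IGFBP3, a binding protein of insulin-like growth factors, was 24.7 ± 4.97 and 25.6 ± 1.35 CPM (SD, n = 3 each; edgeR adjusted p = 0.871). Across both lists, 6 of 43 tested genes passed, against 2.53% of all genes. All of these except TGFB2 and FAT4 failed to pass with limma on log2(TPM + 1), where FAT4 was below the TPM filter. There FAT1 was at 0.57 (limma adjusted p = 0.073), GADD45A at 0.60 (limma adjusted p = 0.131), MYOF at 0.39 (limma adjusted p = 0.423) and CCDC80 at -0.41 (limma adjusted p = 0.332). On TMM-scaled TPM FAT1 passed as well (0.53, limma adjusted p = 0.0119).

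**Figure D5:**
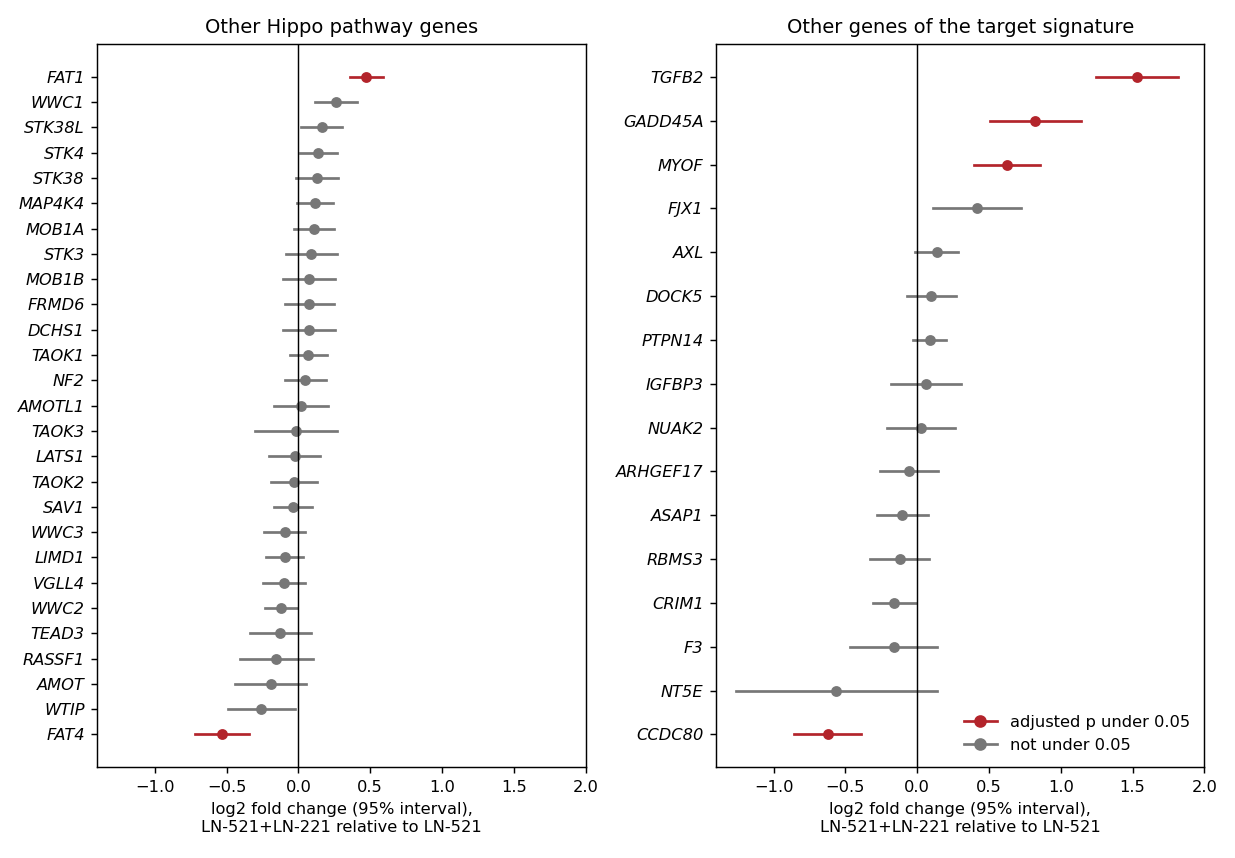
Log2 fold changes with 95% intervals (not adjusted for multiple tests) for the 27 other Hippo pathway genes and the 16 tested genes of the target signature, positive where LN-521+LN-221 was higher. The 6 genes with an adjusted p-value under 0.05 are red: FAT1, TGFB2, GADD45A and MYOF to the right of 0 and FAT4 and CCDC80 to the left.

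Marker lists of other cell types and of the actin skeleton were summed in each library, since they can move with the same contrast. Neuroectoderm markers summed to 49.9 to 63.3 TPM on LN-521 and 109 to 111 TPM on LN-521+LN-221. Of the 8 markers, 5 were tested, and OTX2 (0.72, edgeR adjusted p = 4.38e-06), HESX1 (1.08, edgeR adjusted p = 1.84e-04) and ZIC1 (1.36, edgeR adjusted p = 0.0474) rose on the log2 scale. ZIC1 passed in none of the 6 fits that left out a library, in which its adjusted p-value was at most 0.272, and DESeq2 gave it no adjusted p-value. LHX5, named after its values were seen, had the largest log2 fold change of the 5, 1.75 ± 0.30 (SE), which passed with DESeq2 (adjusted p = 6.93e-06) and not with edgeR (adjusted p = 0.0865). Its CPM was 24.3, 23.4 and 12.1 in LN-521 wells against 60.9, 63.5 and 76.5 in LN-521+LN-221 wells, without overlap. Mean TPM on the 2 coatings was 45.6 and 79.3 for OTX2, 5.76 and 19.6 for LHX5, 5.07 and 10.5 for HESX1 and 0.197 and 0.453 for ZIC1. Neural crest markers summed to 10.6 to 11.3 TPM on LN-521 and 7.82 to 9.85 TPM on LN-521+LN-221, and TFAP2B was at 0 in at least 1 library. Of the 3 tested, FOXD3, which pluripotent cells also express, fell by 1.07 on the log2 scale (edgeR adjusted p = 1.55e-04). Its mean TPM was 4.54 and 2.25 on the 2 coatings. SOX10 was at 0.13 (edgeR adjusted p = 0.771) and NGFR at -0.06 (edgeR adjusted p = 0.848). The mesoderm list summed to 27.7 to 36.0 and 23.6 to 28.5 TPM, which overlap, but in CPM to 190 to 222 and 144 to 166, which do not. Of its genes, KDR fell by 0.37 on the log2 scale (edgeR adjusted p = 0.00742), a call lost without LN-521 replicate 3 or LN-521+LN-221 replicate 3 (edgeR adjusted p up to 0.0792). KDR held most of the sum, with means of 29.3 and 23.3 TPM, and 5 of the 8 genes had a mean under 1 TPM. Of those, EOMES and MESP1 were higher in TPM in every LN-521+LN-221 well, while TBXT, MIXL1 and HAND1 overlapped. MESP1 and HAND1 were at 0 in at least 1 library. Endoderm markers summed to 4.46 to 7.46 and 7.18 to 7.29 TPM, with overlap, and to 6.22 to 10.6 and 11.2 to 12.9 CPM, without it. Of the 3 tested, 2 were below 0 and the median was -0.27, with AFP at -0.98 (edgeR adjusted p = 0.271) and CXCR4 at -0.27 (edgeR adjusted p = 0.715), while HHEX rose by 0.96 (edgeR adjusted p = 0.0238) in a call that 2 of the 6 such fits kept and the replicate block ended (0.98, edgeR adjusted p = 0.0742). SOX17, FOXA2, GATA6 and GATA4 were at 0 in at least 1 library. Trophectoderm and amnion markers summed to 14.3 to 17.1 and 13.7 to 15.5 TPM, with GATA3, CDX2 and ELF5 at 0 in at least 1 library. Of the 4 tested, 0 passed with edgeR or DESeq2, and 0 had an unadjusted p under 0.05 with edgeR.

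Actin and SRF target genes, which share inputs with YAP, summed to 285 to 318 TPM on LN-521 and 334 to 352 TPM on LN-521+LN-221. In CPM the sums overlapped, at 731 to 755 and 753 to 774. TPM1 held most of the TPM sum, with means of 207 and 260 TPM, while 6 of the 8 log2 fold changes were below 0 and their median was -0.18. Of these 8 genes, 2 passed, against 2.53% of all genes. VCL, the focal adhesion protein vinculin, fell by 0.26 on the log2 scale (edgeR adjusted p = 0.00599), and TPM1, a tropomyosin, rose by 0.30 (edgeR adjusted p = 0.00364). VCL kept its call in 3 of the 6 fits that left out a library, losing it without LN-521 replicate 3 and without replicates 2 and 3 of LN-521+LN-221. Over these 6 fits the log2 fold change of VCL was -0.28 to -0.25 (edgeR adjusted p up to 0.0894). TPM1 lost its call without LN-521 replicate 3 (edgeR adjusted p = 0.051). In the pluripotency list, NANOG fell by 0.73 and POU5F1 by 0.36 on the log2 scale and LIN28A rose by 0.23 (edgeR adjusted p = 1.65e-04, 0.00366 and 0.00737). POU5F1 lost its call without LN-521+LN-221 replicate 2, and LIN28A without that library, without LN-521+LN-221 replicate 3 and without LN-521 replicate 3. Of the 11 markers that passed on counts, OTX2 and HESX1 also passed with limma on log2(TPM + 1), and ZIC1 was below the TPM filter. The other eight did not pass there, with limma adjusted p-values from 0.056 for FOXD3 to 0.708 for VCL (NANOG 0.0828, POU5F1 0.073, LIN28A 0.332, KDR 0.536, HHEX 0.17 and TPM1 0.18). On TMM-scaled TPM, NANOG and FOXD3 passed as well (limma adjusted p = 0.0274 and 0.0237). Over the settings with all libraries, log2 fold changes ran from -0.75 to -0.72 for NANOG, -0.37 to -0.32 for POU5F1, 0.23 to 0.27 for LIN28A and 0.29 to 0.33 for TPM1. They ran from -1.08 to -0.78 for FOXD3, -0.38 to -0.31 for KDR, 0.79 to 1.03 for HHEX and -0.28 to -0.19 for VCL. The part of any of these lists in the change of CCN2 was not tested.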

How the data were processed

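Total RNA was sequenced from 6 wells of H1 cells with a stranded kit and paired reads of 150 bp, per the labels' protocols. Per the submitters' processing notes, cutadapt, STAR 2.5.2b, RSEM 1.2.31 and the build hg38 were used. The annotation release and the use of strand are not given in the sources used here. The authors deposited estimated counts per gene, of which 6.08% to 6.67% per library are not whole, and TPM values. The sample sheet lists 1 sequencing batch. Every pair of libraries differed beyond sampling noise (chi-square over its degrees of freedom 2.87 or more).

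Symbols were looked up by gene ID, and positions and overlaps from GENCODE 29 (GRCh38). Counts were rounded, filtered with filterByExpr (minimum count 10), scaled by TMM and tested with edgeR 4.0.16 in R 4.3.3 on all 6 libraries (robust quasi-likelihood fit, coating as the single term, Benjamini-Hochberg over all genes tested, threshold 0.05). The SE is the log2 fold change divided by the root of F, and 95% intervals use the test's degrees of freedom. The fit was tested on simulated data. Alternatives used DESeq2 1.42.0, limma 3.58.1 (with a trend) on TPM with a floor of 1 TPM in 3 libraries, other scalings and filters, a replicate block, and removal of each library. A GC correction and TMM-scaled TPM were added after seeing the data. The 10 genes and all lists were chosen with earlier results of these data known. Named genes were the 10, the genes of both pathway lists that passed, the 3 with the highest TPM per list and the markers that passed; other pathway genes named were chosen after their values were seen. Promoter sequences are RefSeq's, GRCh38.p14.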

Additional observations from a re-analysis of the deposited data

How the results depend on the processing

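Over all genes, 446 of 17608 passed (2.53%; 246 higher, 200 lower). The count was 718 of 36261 without a filter (1.98%; 336 higher, 382 lower) and 911 of 17608 with the GC correction (5.17%). It was 62 and 61 of 14428 with limma on log2(TPM + 1) and log2(TPM + 0.1) (0.43% and 0.423%; 50 and 47 higher), and 108 with TMM-scaled TPM (0.749%; 72 higher). When each library was left out in turn, it was 194 to 1179 (1.09% to 6.54%). Of the 10 genes, 1 passed as reported, 2 without a filter, 4 with the GC correction (CCN2, TEAD1 at -0.26, WWTR1 at -0.32 and YAP1 at -0.13), and 1 to 4 when a library was left out. With limma on TPM 0 passed in each of the 3 settings, with 1, 1 and 3 genes at an unadjusted p under 0.05 (7.71%, 7.68% and 11.3% of all genes), where DESeq2 on counts called 1. Of the other pathway genes 6 passed, 8 with the GC correction, 1, 1 and 2 in the same 3 limma settings, and 5 to 9 when a library was left out. Below 0 were 9 of the 10 genes in each setting on counts, and 8 on TPM. AJUBA reversed on TPM, at 0.24, 0.25 and 0.20, and IGFBP3 reversed without LN-521 replicate 2 (-0.043, range -0.043 to 0.23). AXL went from 0.14 to 0.21 without LN-521 replicate 2 and 0.05 without LN-521 replicate 3, MAP4K4 from 0.12 to 0.18 without LN-521 replicate 1 and 0.07 without LN-521 replicate 3, and PTPN14 from 0.09 to 0.05 without LN-521 replicate 3. Settings shifted the all-gene median by no more than 0.04 (log2). For these changes the cause was not tested. The settings also differed in the number of genes tested and, where a library was left out, in the number of libraries.

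In a fit with a replicate block, 646 genes passed (351 higher, 295 lower), 1 of the 10 (CCN2, -0.53) and 7 of the other pathway genes, and of the single genes named the call of HHEX was lost (0.98, edgeR adjusted p = 0.0742). The labels give no pairing of wells, and same-numbered wells had correlations of 0.047, -0.022 and 0.009 in their deviations from the coating's mean, and not every well correlated best with its own number.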
